A study of Rattus norvegicus with 33 samples.

Results

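The genes of protein synthesis were followed in the cecal microbial DNA of hypertensive and control rats through 47 functional subsystems whose names hold ribosome (in any form) or tRNA. These 47 were picked by name alone from the 1057 functional subsystems of the study, 19 by the ribosome part of their name and 28 by the tRNA part, and no name held both. A subsystem is a set of related gene functions to which sequencing reads were assigned, and the names here have the form used in the SEED collection. The values count gene fragments in DNA, so they give how much of a function the community's genomes carry and not how strongly it is expressed.

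The study sequenced total DNA from the contents of the cecum, a fermentation chamber between the small intestine and the colon, of 33 rats aged 14 to 15 weeks. Spontaneously hypertensive rats (SHR), whose blood pressure rises with age without any treatment, numbered 10 females and 7 males, and Wistar Kyoto rats (WKY), the strain used as their control, numbered 9 females and 7 males. The labels give no treatment, transgene or knockout for any group, and they name strain and sex as the differences between the groups. Each library was 1 rat, and p-values set differences against the spread between rats. Cage and litter are not stated, so the tests treated all rats as independent, which could not be checked.

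Ribosomes read messenger RNA and join amino acids into protein, and transfer RNAs (tRNAs) bring the amino acids. A bacterial ribosome has a large subunit (LSU) and a small subunit (SSU), whose RNA and proteins are put together with the help of assembly factors. Before use, a tRNA is trimmed from a longer transcript, receives its CCA end, has many of its bases modified and is charged with its amino acid by an aminoacyl-tRNA synthetase. Nearly all cellular organisms carry these genes, many of them in 1 copy per genome, and they are widely used as a stable measure of how many genomes a DNA sample holds.

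Reads assigned to functions ran from 95952 to 489862 per library. Means were 246488 for female and 300575 for male SHR against 381431 and 382920 for female and male WKY, so the SHR libraries were shallower on average. The shallow ones were SHR females 5 to 10 and SHR males 3 and 4, with 95952 to 226735 reads. The other SHR libraries held 298212 to 395417, within the WKY range of 251346 to 489862. Of these, 10731 to 45535 reads per library fell in the ribosome and tRNA subsystems. A pair of libraries stood apart in the results below, SHR female 9, which was also the shallowest of all, and WKY female 2, and results that rest on them are given with and without them. Numbers of rats within a group follow accession order, and in SHR the shallow libraries formed a consecutive run of that order.

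The summed share of the 47 subsystems was almost equal between the strains in females and slightly higher on average in SHR than in WKY males. It took 9.62% ± 0.648 of function reads in SHR females (SD, n = 10) and 9.61% ± 0.860 in WKY females (n = 9). In males it took 9.99% ± 0.519 in SHR (n = 7) and 9.62% ± 0.209 in WKY (n = 7). Over all 33 rats the lowest was 8.72%, the median 9.58% and the highest 11.6%, and the ranges of the 4 groups overlapped. The highest value belonged to WKY female 2 and the next to SHR female 9, at 11.2%. Without this pair the means were 9.44% in SHR females and 9.36% in WKY females.

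**Figure D1:**
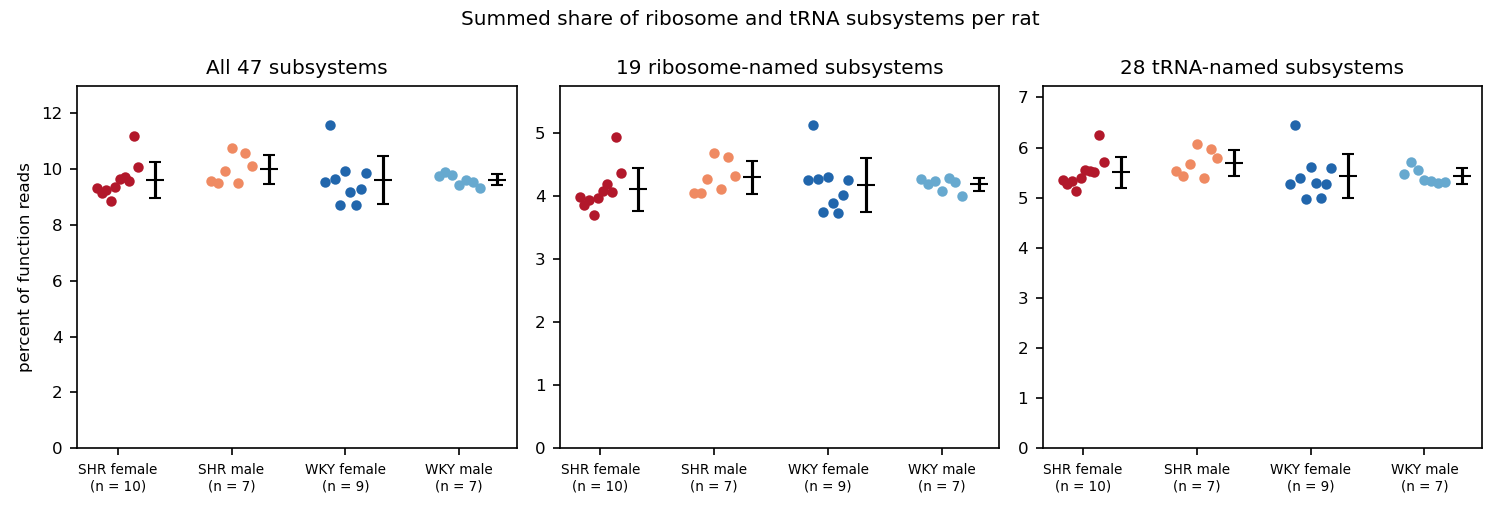
Summed share of function reads, in percent from 0, taken by all 47 subsystems, by the 19 named for ribosomes and by the 28 named for tRNA, with 1 point per rat and bars of mean ± SD beside each group. The groups overlap in every panel, with all rats between 8.72% and 11.6% in the first, and the highest point is WKY female 2.

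Ribosome-named subsystems took 4.19% ± 0.312 of function reads over the 33 rats and tRNA-named ones 5.51% ± 0.322. The ratio of LSU to SSU bacterial reads was 1.28 ± 0.0904 over all rats and ran from 1.16 to 1.54. Lengths of the genes behind a subsystem are not in the files, so a higher read count of one subsystem than another does not mean more gene copies.

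The ribosomal protein subsystems were the largest of the set. Ribosome LSU bacterial, the proteins of the large subunit, had a mean of 2555 normalized reads, which are reads divided by the size factor of the library. Its lowest, median and highest values were 2285, 2515 and 2895 in SHR females, 2327, 2455 and 3165 in WKY females, 2416, 2583 and 2817 in SHR males and 2346, 2564 and 2723 in WKY males. The groups overlapped almost entirely, and the single high WKY female was number 2.

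Ribosome SSU bacterial, the small subunit's proteins, had a mean of 1996 normalized reads and group means of 1986 ± 90.2 in SHR females, 2016 ± 173 in WKY females, 2031 ± 150 in SHR males and 1947 ± 220 in WKY males. Single-copy ribosomal proteins, those that genomes typically hold once, had a mean of 2378 and group means of 2389 ± 223, 2360 ± 244, 2495 ± 196 and 2269 ± 102 in the same order. Between the strains, fits by limma on log2(normalized reads + 1) gave differences (SHR minus WKY) within a narrow band for all 3. For the large subunit the difference was -0.01 in females (95% interval -0.10 to 0.08) and 0.04 in males (-0.06 to 0.15). For the small subunit it was -0.02 in females (-0.13 to 0.09) and 0.07 in males (-0.06 to 0.19). Single-copy ribosomal proteins differed by 0.02 in females (-0.09 to 0.13) and by 0.13 in males (0.01 to 0.26, adjusted p = 0.221). In females these 3 values lay so near 0 that their sign turned under some settings: the large and small subunit turned positive with edgeR's scaling (0.01 and 0.0021) and without WKY female 2 (0.03 and 0.0048), and single-copy proteins turned negative with log2 depth in the model (-0.10), without the 3 shallowest libraries (-0.03) and without SHR female 9 (-0.01).

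Other ribosomal clusters covered a wide range of levels. The SSU genes of a Mycobacterium virulence operon, a conserved run of ribosomal protein genes named after one genus, had a mean of 1223 normalized reads and its LSU counterpart 173. The cell division-ribosomal stress proteins cluster stood at 1210. A Gram-positive cluster built around the large-subunit protein L28P stood at 791, ribosomal proteins with a zinc requirement at 318 and ribosome activity modulation at 165. Enzymes that modify single ribosomal proteins were lower, with 362 normalized reads for the S12p Asp methylthiotransferase, which adds a methylthio group to protein S12, and 107 for acylation of protein S5. Trans-translation, the rescue of ribosomes stalled on broken messages, had 49.3.

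Ribosome subsystems named after organisms or organelles outside the bacteria were nearly empty. The eukaryotic and archaeal large subunit held 14 reads in all 33 libraries and the small subunit 30. The chloroplast LSU, the chloroplast SSU, the mitochondrial SSU and archaeal ribosome biogenesis each held 1 read, in 1 library each. The 45 reads of the ribosome subsystems named archaeal were 6 and 7 in female and male SHR and 22 and 10 in female and male WKY. Their share of function reads did not track the share of reads assigned to archaea and eukaryotes: Pearson's r was 0.03 over 33 rats (permutation p = 0.862, adjusted 0.862; Spearman's rho -0.03, p = 0.886, adjusted 0.886), 0.22 within SHR and 0.23 within WKY, and on the log2 scale the value over all rats was -0.03. At 1.36 reads per library on average, a relation could not be seen at this depth.

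The eukaryotic and archaeal large subunit held 9 of its 14 reads in WKY females, in 6 of 9 rats, and 1 read in SHR females. SHR males had 4 reads, in 3 of 7 rats, and WKY males 0. In females limma gave a difference of -0.66 ± 0.22 on the log2(normalized reads + 1) scale, which missed the threshold (adjusted p = 0.0559). It passed with log2 depth in the model (0.0467) and in 6 of the fits that left out 1 rat, the lowest of them without WKY female 7 (0.0279), and did not pass in the other 35 alternatives that gave an adjusted p (DESeq2 gave none). The ratio of reads per function read, SHR over WKY females, was 0.155, with an exact 95% interval for counting error only of 0.0035 to 1.117.

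Of the 4 tRNA subsystems whose names mention archaea or yeast, 3 were far from empty. tRNA mods Archaea held a mean of 1831 normalized reads, tRNA modification Archaea 686 and tRNA modification yeast mitochondrial 145. Archaea took 0.253% to 0.553% of assigned reads, and the name of such a subsystem does not give the organism each read came from. The other, tRNA modification yeast cytoplasmic, held 1 read.

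Charging of tRNAs was represented by 17 aminoacylation subsystems, each for 1 or 2 standard amino acids. No subsystem of this kind was named for proline. The 17 ran from 43.1 normalized reads for histidine to 1386 for glutamate with glutamine. Aspartate with asparagine (1222), valine (1160), phenylalanine (1155) and leucine (1087) followed the highest, then methionine (968), isoleucine (932), lysine (832), glycine (734) and alanine (664). Arginine (544), tyrosine (538), cysteine (489), serine (459), tryptophan (409) and threonine (337) were lower. Pyrrolysine, an additional amino acid known mostly from methanogenic archaea, held 24 reads in all libraries together.

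Supporting tRNA functions completed the set. tRNA processing, the trimming of precursors, had a mean of 808 normalized reads, and tRNA nucleotidyltransferase, the enzyme that adds the CCA end, had 254. D-tyrosyl-tRNA deacylase, which removes wrongly attached D-amino acids, had 38.6. tRNA-dependent amino acid transfers stood at 32.3 and tRNA splicing at 14.9.

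In all, 38 of the 47 subsystems had a read in every library and reached 10 normalized reads in at least 7 samples. The other 9 held under 100 reads each and 91 together, 5 of them in 1 library only. All 47 stayed in the tests.

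The levels of these subsystems varied little from rat to rat within a group. Among the 430 functions with a mean of at least 100 normalized reads, the median SD within groups was 0.221 on the log2 scale, and among the 33 ribosome and tRNA subsystems of that level it was 0.122, with 31 of 33 below the median of all. Arginine aminoacylation varied least of the set, with an SD of 0.0530 that was the second lowest of the 430 functions. Its normalized reads had a lowest, median and highest value of 511, 538 and 552 in SHR females, 514, 574 and 592 in WKY females, 515, 553 and 584 in SHR males and 514, 533 and 542 in WKY males. At the other end stood the L28P cluster, with an SD of 0.308. The low spread went with a high level: among the 93 functions with a mean of at least 1000 the median SD was 0.118, and the 12 ribosome and tRNA subsystems there had a median of 0.118 too, with 5 of 12 below the median of all.

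**Figure D2:**
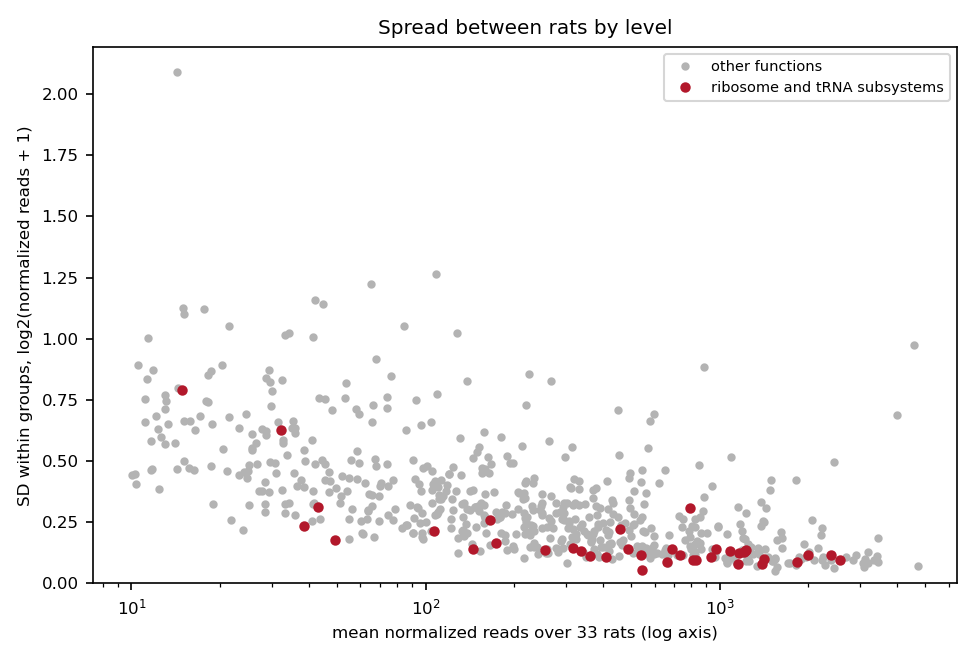
SD within groups of log2(normalized reads + 1) against the mean normalized reads over 33 rats (log axis), 1 point per function. At means of 100 and more, 31 of 33 ribosome and tRNA subsystems lie below the median SD of all functions, 0.221, and at 1000 and more both they and all functions have a median SD of 0.118.

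Between strains in females, the comparison that asks which functions the hypertensive rats' cecal community held more or less of, 2 of the 47 subsystems were called (limma, 1057 functions, Benjamini-Hochberg adjusted p under 0.05). That is 4.26% of them, against 8.42% of all functions. tRNA mods Archaea was higher in SHR and Ribosome biogenesis bacterial was lower. The median difference of the 47 was -0.01 on the log2 scale, against -0.04 over all functions, and 7 of the 47 had an unadjusted p under 0.05, against 264 of 1057.

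tRNA mods Archaea, a set of tRNA base modifications, had a lowest, median and highest value of 1789, 1931 and 2117 normalized reads in SHR females and 1624, 1693 and 1885 in WKY females. All 10 SHR females lay above the WKY median, and 8 of them lay above every WKY female, so the groups overlapped only at the edge. The difference was 0.18 ± 0.041 (log2, SE), or 13.1% more in SHR (adjusted p = 0.0064 by limma). In males the values were 1712, 1913 and 2072 in SHR and 1573, 1739 and 2024 in WKY, with 6 of 7 SHR males above the WKY median. That difference was 0.15 ± 0.048 and missed the threshold (adjusted p = 0.0781). Without WKY male 2, the highest of its group, or without SHR male 5 it passed (adjusted p = 0.0154 and 0.0452 by limma).

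Ribosome biogenesis bacterial, the assembly factors, GTPases and RNA processing enzymes that build the ribosome, had a lowest, median and highest value of 1235, 1312 and 1475 normalized reads in SHR females and 1381, 1481 and 1589 in WKY females. All 10 SHR females lay below the WKY median and 9 of 10 lay below every WKY female. The difference was -0.18 ± 0.046, or -11.4% (adjusted p = 0.0152 by limma). In males the values were 1263, 1319 and 1480 in SHR and 1337, 1487 and 1790 in WKY. All 7 SHR males lay below the WKY median and 4 of 7 below every WKY male, and the difference of -0.15 ± 0.054 missed the threshold (adjusted p = 0.116).

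Both calls in females held under every setting tried and without each rat in turn. The females' difference of tRNA mods Archaea ranged from 0.16 to 0.20 over the settings and that of ribosome biogenesis from -0.21 to -0.15.

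Between strains in males, 1 of the 47 subsystems was called, or 2.13% of them, against 2.46% of all functions. The median difference of the 47 was 0.07, against -0.0015 over all functions, and 9 had an unadjusted p under 0.05, against 203 of 1057. The call was tRNA modification Archaea, a second set of tRNA base modifications. Its lowest, median and highest values were 676, 719 and 797 normalized reads in SHR males and 471, 563 and 736 in WKY males. All 7 SHR males lay above the WKY median, and 1 WKY male lay above the SHR median. The difference was 0.30 ± 0.075, or 22.7% (adjusted p = 0.0280 by limma).

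The call in males rested on few rats. It was lost without SHR male 1 (adjusted p = 0.0525), SHR male 5 (0.0537), WKY male 5 (0.0740) or WKY male 6 (0.0754), and when only the male groups entered the limma fit (0.169). In females the same subsystem read 692, 723 and 785 in SHR and 583, 689 and 822 in WKY, with a difference of 0.09 ± 0.065 (adjusted p = 0.424). The test of the difference between the sexes gave -0.21 ± 0.099 (adjusted p = 0.643), so the strain effects in females and males were not shown to differ. WKY males were also low against WKY females, by 0.24 ± 0.071 (adjusted p = 0.0751 by limma and 0.0246 by DESeq2). By limma that difference passed without WKY male 7 (adjusted p = 0.0120), WKY female 9 (0.0308) or WKY female 1 (0.0411).

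Averaged over the sexes, 4 of the 47 subsystems were called, or 8.51%, against 17.2% of all functions. This comparison shares its samples with the 2 above and adds power, not independent evidence. tRNA mods Archaea (0.16 ± 0.031, adjusted p = 0.00064) and tRNA modification Archaea (0.19 ± 0.050, adjusted p = 0.0074) were higher in SHR and Ribosome biogenesis bacterial was lower (-0.16 ± 0.035, adjusted p = 0.0023), all by limma. These 3 held under every setting and without each rat in turn.

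The last was tRNA splicing, the cutting of introns out of tRNA precursors, a step best known from archaea and eukaryotes. It rested on 467 reads in all. Its lowest, median and highest values were 6.19, 18.8 and 36.0 normalized reads in SHR females, 3.15, 10.1 and 17.1 in WKY females, 9.99, 13.9 and 41.1 in SHR males and 1.96, 11.9 and 19.2 in WKY males. All 4 groups overlapped, while 9 of 10 SHR females and 4 of 7 SHR males lay above the WKY median of their sex. The averaged difference was 0.90 ± 0.27 (adjusted p = 0.0189 by limma). The call ended with log2 depth in the model (0.63, adjusted p = 0.138), and SHR libraries were shallower on average. The pseudocount weighs on a subsystem this low, and with 5 in place of 1 the difference was 0.66 (adjusted p = 0.0187).

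**Figure D3:**
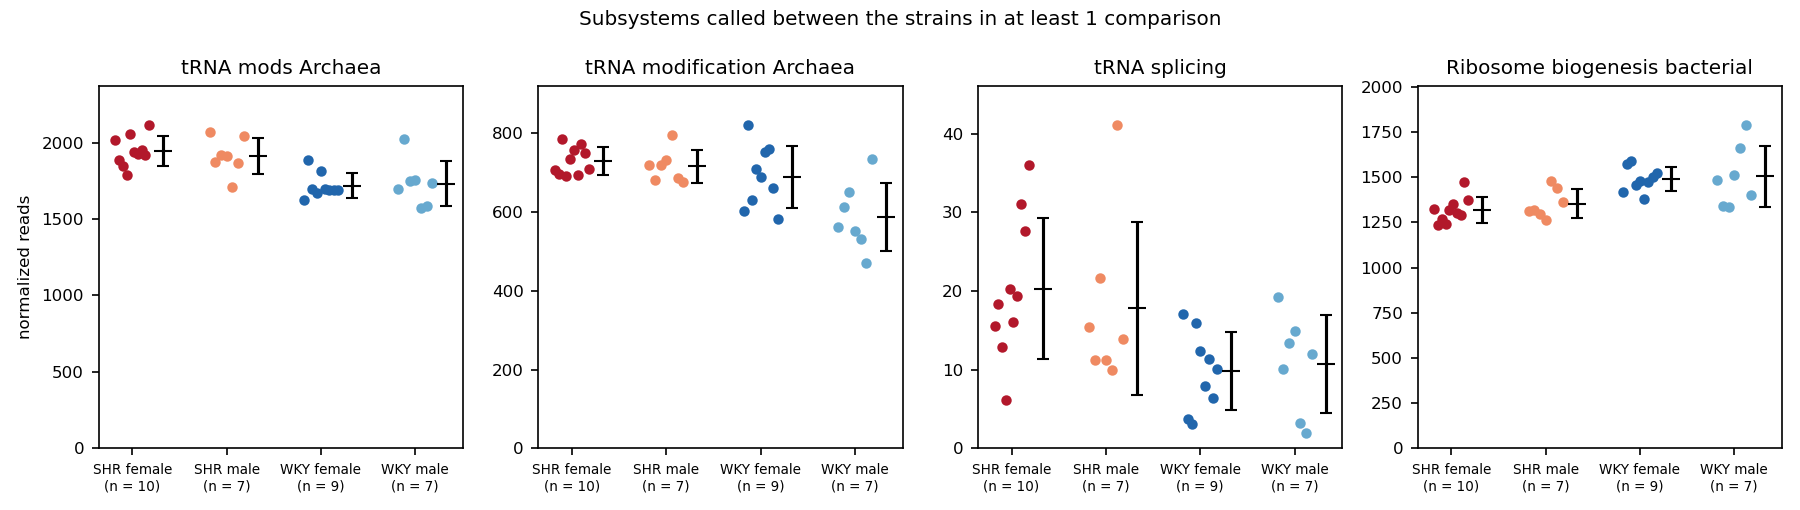
Normalized reads per rat, from 0, of the 4 subsystems called between the strains in at least 1 comparison, with bars of mean ± SD beside each group. SHR rats sit higher for tRNA mods Archaea and tRNA splicing and lower for Ribosome biogenesis bacterial, while for tRNA modification Archaea the WKY males, with a median of 563, sit lowest.

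Threonine aminoacylation lay on the threshold in the averaged comparison (0.14 ± 0.049, adjusted p = 0.050003 by limma, just above it) and passed with DESeq2 (0.0169) and edgeR (0.0394). Of the 17 aminoacylation subsystems of standard amino acids, 0 were called in females, in males or in the average, against 8.42%, 2.46% and 17.2% of all functions. In each comparison 2 of the 17 had an unadjusted p under 0.05, or 11.8%, against 25%, 19.2% and 31.6% of all functions. In females their differences ran from -0.09 to 0.13 with a median of -0.01, and in males from -0.04 to 0.18 with a median of 0.05. The ends of these ranges were glycine and threonine in females (-0.09 ± 0.055 and 0.13 ± 0.064) and, at the top in males, cysteine (0.18 ± 0.078, adjusted p = 0.184), which passed without WKY male 2 (0.0380 by limma). Glycine aminoacylation passed in females without the 3 shallowest libraries (-0.14) and with log2 depth in the model (-0.19).

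Among subsystems with a mean of at least 50 normalized reads, the largest other differences in females included tRNA modification yeast mitochondrial (-0.19 ± 0.073, adjusted p = 0.0885). In males they were the S12p Asp methylthiotransferase (0.21 ± 0.067, adjusted p = 0.0684), the LSU genes of the Mycobacterium operon (0.17 ± 0.094, adjusted p = 0.327), isoleucine aminoacylation (0.16 ± 0.060, adjusted p = 0.127) and ribosomal proteins with a zinc requirement (0.15 ± 0.081, adjusted p = 0.295). None of these passed in the main limma fit. In males the S12p enzyme passed in 3 of 44 alternatives, among them limma without WKY male 7 (adjusted p = 0.0338). Isoleucine aminoacylation passed in 2 of 44. In females tRNA modification yeast mitochondrial passed by limma without WKY female 1 (adjusted p = 0.0481). DESeq2 called 4 of the 47 in males, against 7.52% of the functions it tested: tRNA modification Archaea (adjusted p = 0.0085), the S12p enzyme (0.0276), tRNA mods Archaea (0.0329) and isoleucine aminoacylation (0.0435).

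**Figure D4:**
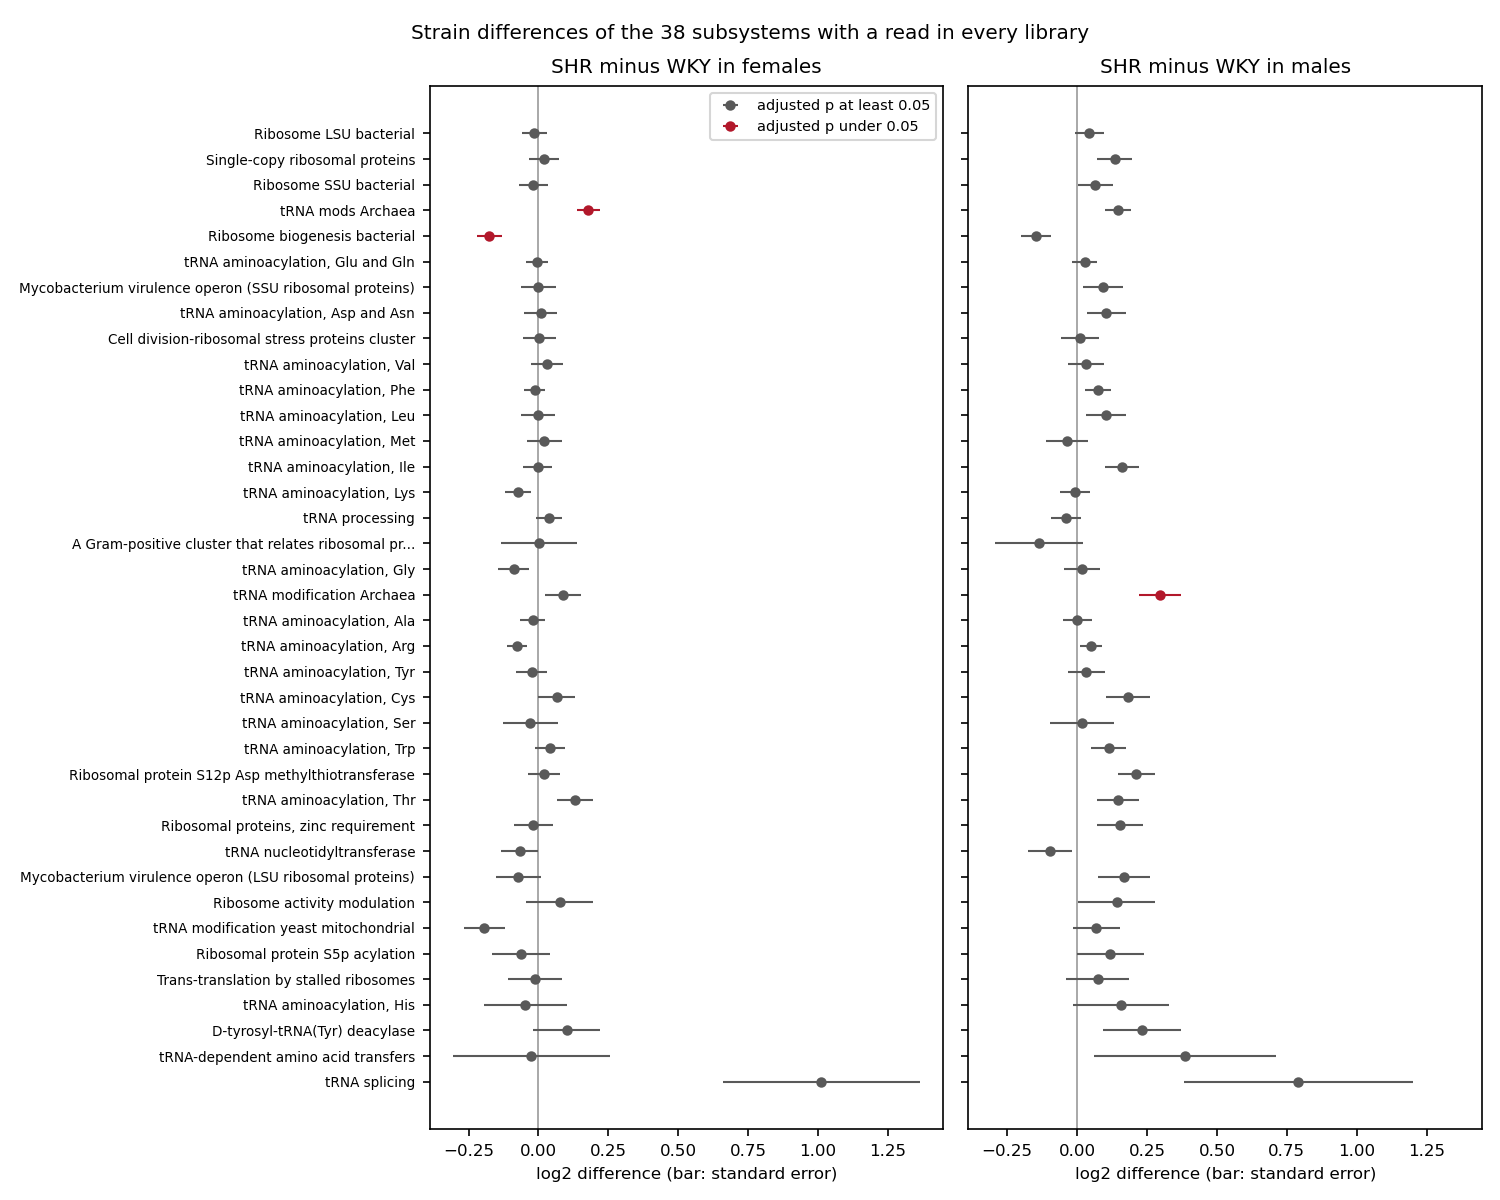
Strain differences, SHR minus WKY on the log2(normalized reads + 1) scale, of the 38 subsystems with a read in every library, ordered by level from the highest at the top, with bars of 1 standard error. Most points lie near 0, the 2 called in females and the 1 called in males are red, and tRNA splicing at the bottom has the widest bars.

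Between females and males, 0 of the 47 subsystems were called in SHR, against 0% of all functions, with 0 calls by edgeR and by DESeq2. By limma 3 of the 47 had an unadjusted p under 0.05 (6.38%, against 4.54% of all functions). In WKY 0 of the 47 were called by limma, against 0.662% of all functions, with 6 at an unadjusted p under 0.05 (12.8%, against 18.3%). There edgeR called 0 of the 47, against 3.22% of functions, and DESeq2 called 2, against 6.64%: tRNA modification Archaea and the S12p Asp methylthiotransferase (adjusted p = 0.0292). The limma test of whether the strain effect differed between the sexes called 0 of the 47, against 0% of all functions. In that test 7 of the 47 had an unadjusted p under 0.05 (14.9%, against 7.76% of all functions). For the same question 0 of the 47 were called by edgeR (0% of functions) and by DESeq2 (0.0977% of functions). Ranges that did not overlap were found for 0 of the 47 subsystems between the strains in females and in males, against 0.378% of all functions in each, and for 0 between the sexes in SHR, against 0.189%, and in WKY, against 0%.

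Other genes of translation were looked at in the same fits. Of 18 further subsystems for translation factors, rRNA and tRNA base modification, selenocysteine and the stringent response, 1 was called in females (5.56%, against 8.42% of all functions), 0 in males (against 2.46%) and 1 in the average (5.56%, against 17.2%). It was RNA pseudouridine syntheses, the enzymes that turn uridine into pseudouridine in ribosomal and transfer RNA, lower in SHR females by 0.35 (-0.35 ± 0.097, adjusted p = 0.0190) and in the average (-0.29 ± 0.074, adjusted p = 0.0074, by limma). It had 200.2 ± 28.3 normalized reads in SHR females and 256 ± 40.0 in WKY females. Bacterial termination factors, which release the finished protein, had group means from 1507 to 1569 normalized reads.

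The authors' deposited table for females listed 85 functions, among them the same 2 subsystems, Ribosome biogenesis bacterial with a log2 fold change of 0.18 (adjusted p = 2.8e-05) and tRNA mods Archaea with -0.18 (3.8e-05). The authors' deposited table for a general model listed 148 functions. In it tRNA mods Archaea stood at -0.16, Ribosome biogenesis bacterial at 0.19 and tRNA modification Archaea at -0.31. The authors' deposited table for males listed 16 functions and none of the 47. The direction of those fold changes is not stated. Their sign was opposite to SHR minus WKY for all 85 functions in females and all 16 in males. For the general model, set against the average over the sexes, it was opposite for 139 of 148.

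The make-up of the community differed widely between rats of 1 group, and some subsystems moved with it. The phylum Bacteroidetes, Gram-negative bacteria that break down complex carbohydrates, took 5.20% to 49.2% of assigned reads over the 33 rats. Over all rats 16 of the 38 subsystems with a read in every library correlated with that share (Pearson's r and Spearman's rho, permutation tests adjusted over 658 functions, both under 0.05), against 54.4% of all functions with a read in every library. Within SHR 11 did, against 32.2%, and within WKY 13, against 44.2%. Only 5 of 38 passed within both strains with 1 sign, against 24% of the functions, and all 5 fell as Bacteroidetes rose.

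The strongest was the L28P cluster, a set named for Gram-positive bacteria. Its lowest, median and highest values were 592, 687 and 1061 normalized reads in SHR females, 489, 730 and 1012 in WKY females, 647, 789 and 1047 in SHR males and 633, 852 and 1192 in WKY males. These ranges overlapped, and the strain difference was near 0 in females and missed the threshold in males. Pearson's r with the Bacteroidetes share was -0.92 in the 17 SHR rats and -0.92 in the 16 WKY rats (permutation tests, adjusted p = 0.00014 and 0.000146, and rho = -0.93 and -0.90). Without the 2 rats farthest from the median share, r was -0.91 and -0.88. The shares left a gap between 26.1% and 33.1%, and r was -0.76 in the 18 rats below it and -0.73 in the 15 above, where rho (-0.66) missed the adjusted threshold.

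The cell division-ribosomal stress proteins cluster followed, with r = -0.84 in SHR and -0.86 in WKY (permutation tests, adjusted p = 0.000304 and 0.000356). The other 3 were serine aminoacylation (-0.81 and -0.57), methionine aminoacylation (-0.74 and -0.66) and ribosome activity modulation (-0.58 and -0.75). For these 4 the relation did not pass on either side of the gap, where r lay between -0.60 and -0.04. In all, 4 of the 38 passed in rats below the gap, against 26% of functions, and 0 of 38 above it, against 6.23%. Without the 2 farthest rats, r of serine aminoacylation in WKY was -0.40.

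The ribosomal protein subsystems did not share 1 pattern. For the large subunit r was -0.43 in SHR and -0.05 in WKY, neither of which passed. For the small subunit it was 0.26 in SHR and 0.65 in WKY, where it passed (permutation test, adjusted p = 0.0192), while on either side of the gap it did not. Summed over the 47 subsystems, the share of function reads had an r of -0.76 with Bacteroidetes in SHR and -0.47 in WKY. Without the 2 rats farthest from the median Bacteroidetes share, r was -0.69 in SHR and -0.21 in WKY. In the 18 rats below the gap r was 0.13, and in the 15 above it -0.60. With log2 of the function reads of the library the summed share had an r of -0.66 in SHR and -0.34 in WKY. Without the 2 rats farthest from the median depth these were -0.44 and -0.67. These values are a description only, and the relation of depth to Bacteroidetes was not tested.

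**Figure D5:**
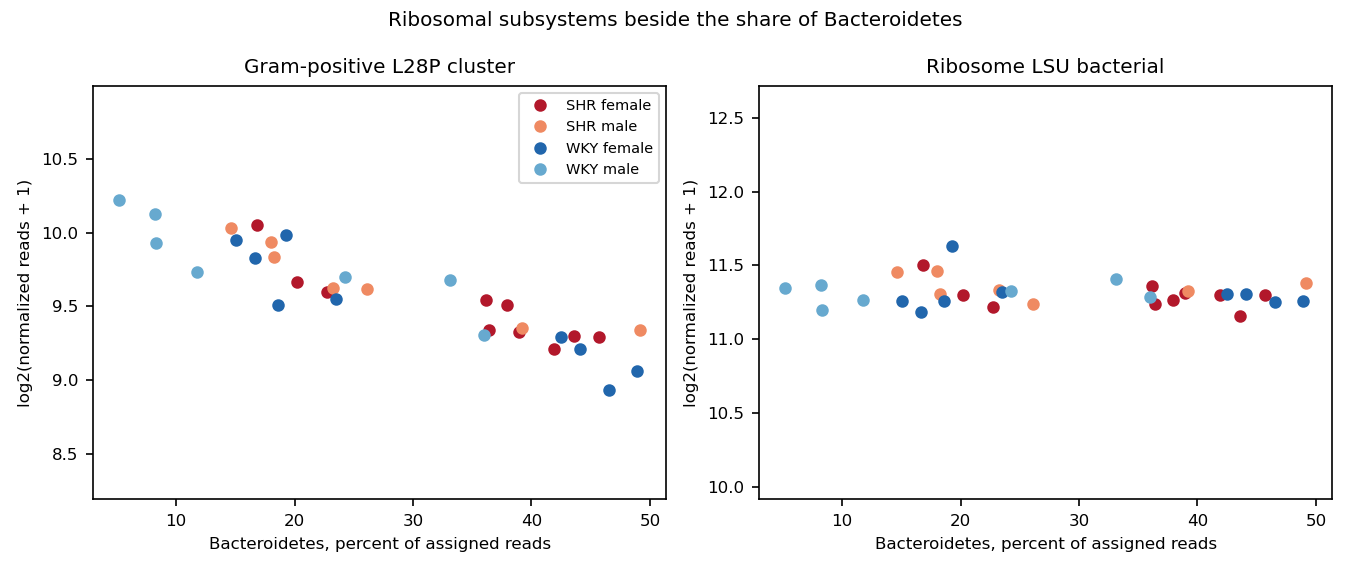
Log2(normalized reads + 1) of the Gram-positive L28P cluster and of Ribosome LSU bacterial against the percent of assigned reads given to Bacteroidetes, 1 point per rat, with axes of equal height in both panels. The L28P cluster falls over the whole range, with r = -0.92 in each strain, and the relation of the large subunit passed in neither strain.

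Of the 4 called subsystems, tRNA mods Archaea and tRNA splicing moved with the archaeal share of reads over all rats. Archaea took 0.461% ± 0.0570 of assigned reads in female SHR against 0.382% ± 0.0655 in female WKY, and 0.467% ± 0.0414 in male SHR against 0.358% ± 0.0608 in male WKY. The share of eukaryotes had the same order, with 0.740% and 0.751% in female and male SHR against 0.593% and 0.562% in female and male WKY. Whether the called subsystems moved with it was not tested, so the relation was not shown to be particular to archaea. Over all 33 rats r was 0.79 for tRNA mods Archaea and 0.65 for tRNA splicing (permutation tests, adjusted p = 0.00047 and 0.000526), and 11 of the 38 subsystems passed, against 18.4% of functions. Within strains the values were 0.56 in SHR and 0.66 in WKY for tRNA mods Archaea and 0.67 and 0.36 for tRNA splicing, and neither passed within a strain by both measures. For tRNA modification Archaea r with the archaeal share was 0.57 over all rats, where rho (0.41, adjusted p = 0.0801) missed the threshold, -0.26 in SHR and 0.59 in WKY. Within WKY 0 of 38 passed, against 0.152% of functions, and within SHR 5, against 22%. tRNA modification Archaea moved with Bacteroidetes in WKY (r = 0.74, permutation test, adjusted p = 0.00454), and so did Ribosome biogenesis bacterial, in the other direction (-0.57, adjusted p = 0.0439). The part of archaea or Bacteroidetes in the strain differences was not tested.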

How the data were processed

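DNA of cecal contents was extracted with a bead-based soil kit and made into Nextera libraries, as the labels' protocols state. Tools named in the submitters' processing notes are Trimmomatic 0.36, cutadapt 2.6, FastQC 0.11.5 and, without a version, DESeq2, with a rat genome build. What assigned the reads to functions is not given in the sources used, so related organisms may share reads. The authors deposited a table of 1057 functions in which each value is a signal, the read count divided by a size factor of the library; dividing by the worth of 1 read gave whole reads for 100% of values (tolerance 0.01). The authors deposited taxon tables in percent of reads. Their deposited model tables give a log2 fold change and an adjusted p-value per listed function.

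The main test was limma 3.58.1 (R 4.3.3) on log2(value + 1): 4 group means, variance trend, robust, all 33 samples and 1057 functions, 6 comparisons, Benjamini-Hochberg adjusted p under 0.05. Fold changes on this scale understate those of low functions. DESeq2 1.42.0 and edgeR 4.0.16 ran on the recovered reads. Scripts were tested on simulated data. Other alternatives were equal totals, pseudocounts of 0.5 and 5, a filter (10 in at least 7 samples), no trend, only the groups compared, log2 depth, the 3 shallowest libraries and each rat left out. Permutation tests used 100000 resamples (all two-sided). Reads carry no molecular identifiers, so they are not independent molecules.

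Subsystems were named in the text if called in any comparison, among the 10 highest, among the 6 largest differences per sex with a mean of at least 50, an aminoacylation subsystem, or a ribosome of a non-bacterial name; subsystems that correlated within both strains, and any others with values, were chosen after seeing them. The members and lists were chosen with earlier results of these data known. In the order of the sample names all SHR rats came before all WKY rats. Processing order is not stated, and if it followed that order it could not be told apart from strain.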

Additional observations from a re-analysis of the deposited data

Results flagged for a closer look

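Within a group, 18 of 92 sets of values had a highest or lowest rat far from the rest by Dixon's criterion, where chance gives about 1 in 20, and all 18 lay at the top. The sets share libraries and are not independent.

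WKY female 2 accounted for 9 of them. It had the highest summed share of its group for all 47 subsystems (11.6%, next 9.92%), for the ribosome-named ones (5.13%, next 4.30%) and for the tRNA-named ones (6.45%, next 5.62%). It was also the highest WKY female for Ribosome LSU bacterial (3165 normalized reads, next 2559), Single-copy ribosomal proteins (2972, next 2398), ribosomal proteins with a zinc requirement (399, next 324) and the aminoacylation of cysteine (598, next 499), glycine (910, next 774) and valine (1417, next 1194).

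SHR female 9, the shallowest library at 95952 function reads, was the highest SHR female for the summed share of all 47 subsystems (11.2%, next 10.1%) and of the tRNA-named ones (6.25%, next 5.72%), and for the aminoacylation of aspartate with asparagine (1337 normalized reads, next 1235) and of glycine (877, next 753).

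Among males, WKY male 2 stood apart for tRNA mods Archaea (2024 normalized reads, next 1755) and valine aminoacylation (1314, next 1196), and WKY male 1 for Single-copy ribosomal proteins (2481, next 2290). SHR male 6 stood apart for tRNA splicing (41.1 normalized reads, next 21.7) and SHR male 3 for isoleucine aminoacylation (1066, next 982).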

How the results depend on the processing

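The direction and call of tRNA mods Archaea and Ribosome biogenesis bacterial in females, and of these and tRNA modification Archaea averaged over the sexes, held under every setting tried. With log2 depth in the model, calls among the 47 subsystems rose to 6 in females, 3 in males and 7 in the average, and among all functions to 231, 94 and 280, with 22 between the sexes in WKY and 3 for strain by sex, and the other translation subsystems had 2 in females and 2 in the average. Without the 3 shallowest libraries all functions had 150 calls in females and 12 between the sexes in WKY. A filter on low values gave 2 of the 47 and 50 functions in males, and 23 functions between the sexes in WKY. DESeq2 called 4 of the 47 and 77 functions in males, 2 of the 47, 2 other translation subsystems and 68 functions between the sexes in WKY, and 1 function for strain by sex; edgeR called 34 functions between the sexes in WKY. Fitting only the groups compared left 0 of the 47 and 2 functions in males, and 1 function between the sexes in WKY. The cause of these shifts was not tested, apart from the smaller number of functions or rats that the filter and the fits with fewer groups use by construction.

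In females, Ribosome LSU bacterial turned to 0.0052 with edgeR and to 0.0027 without SHR female 9 and WKY female 2, a setting chosen after seeing the data, Ribosome SSU bacterial turned to 0.0021 with edgeR, and Single-copy ribosomal proteins turned to -0.10 with log2 depth in the model and to -0.029 without the 3 shallowest libraries. Strain by sex for tRNA splicing turned to -0.039 without those 3. With the 10 largest functions left out of the denominator the summed share was 10.9% and 11.3% in female and male SHR and 10.99% and 10.8% in female and male WKY. The median SD of the ribosome and tRNA subsystems minus that of all functions turned to 8.2e-05 at means of at least 1000, and the correlation of archaeal ribosome reads over all rats to -0.029 on the log2 scale.

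Leaving out 1 rat at a time gave 0 to 3 of the 47 and 10 to 81 functions called in males (10 without WKY male 6, 81 without WKY male 7). In females it gave 2 to 3 of the 47 and 61 to 129 functions. The gained one was Ribosome LSU eukaryotic and archaeal in 6 fits, tRNA splicing in 2 and tRNA modification yeast mitochondrial in 1. There were 0 to 1 other translation subsystems in females (0 without WKY female 3). In the average, leaving out 1 rat gave 4 to 6 of the 47 and 135 to 215 functions. The gained ones there were threonine and cysteine aminoacylation and the S12p enzyme. Between the sexes, leaving out 1 rat gave 0 to 1 functions in SHR, and 0 to 1 functions for strain by sex. In WKY the same gave 0 to 1 of the 47, 0 to 2 other translation subsystems and 2 to 74 functions (2 without WKY male 5, 74 without WKY male 7). Leaving out 1 rat turned 4 differences near 0: in females the large subunit ranged from -0.037 to 0.026 (positive without SHR female 4 or WKY female 2), the small subunit from -0.048 to 0.0048 (positive without WKY female 2) and single-copy proteins from -0.013 (without SHR female 9) to 0.061, and strain by sex of tRNA mods Archaea from -0.0061 (without WKY male 2) to 0.054.

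No paired analysis was possible because the labels give no replicate numbers that the groups share. Depth limits the 9 subsystems with under 100 reads, of which Ribosome LSU eukaryotic and archaeal passed in females under some settings but not in the reported comparison.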
